A study of Drosophila melanogaster with 6 samples.

Results

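The genes described here encode the proteins of the cytosolic ribosome of Drosophila melanogaster, together with their paralogs, which are further gene copies of the same protein or related to it. Members were the genes whose current symbol begins with RpL or RpS followed by a number or by P, plus sta and sop. The gene table lists 93 such genes (sop under its current symbol RpS2), and 41 of them had a probe set of their own on the array, out of 11982 genes measured in all. The other 52, among them sta, RpS2, RpS3, RpS6, RpL5 and RpL11, were not analysed here. Of the 41, 25 belong to the large subunit and 16 to the small one. Each gene was read by 1 probe set, the one with the highest mean over the arrays. The study measured whole male flies of the strain W1118, labelled wild type and 30 days old. They had been kept on a control diet or on a diet with 50 µmol/l lithocholic acid (LCA), a bile acid of vertebrates. Each diet had 3 Affymetrix arrays, and each array carried RNA from a pool of 10 flies. Nothing in the labels ties the pools to separate cultures, so p-values measure only how far these pools vary, which may be technical. All flies carry the white mutation of this stock, so neither diet represents a fully wild-type eye.

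Ribosomes translate messenger RNA into protein, and a growing or secreting cell spends much of its transcription on their parts. Each ribosome holds 1 copy of most of its proteins, so that the genes are usually expressed in balance, and flies that carry a single working copy of such a gene often show the slow growth and short bristles of the Minute phenotype. Most ribosomal proteins of the fly come from a single gene. Several families have a second copy that is transcribed mainly in the germ line, above all in the testis, where RpL22-like is the best studied case. Others, such as RpLP0-like, RpL24-like and RpL7-like, resemble proteins that in yeast help to assemble the large subunit and are not lasting parts of it.

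Copies were classed by signal within a family, a family being the genes that share a number and differ in a final small letter, a hyphenated number or the ending "-like". The 29 main copies were 25 single-copy genes and the brightest gene of each of 4 families with several copies measured. In those 4 families 5 further genes were the dimmer paralogs. In 7 more families only 1 copy had a probe set of its own, and these 7 genes are called copies measured alone, since their counterpart could not be set beside them. The signal chose which copy is main, so this order is not a result, and the signal of a probe set depends on its sequence, so it does not rank the transcripts of different genes. On the log2 scale, main copies had means from 12.67 (RpL29) to 13.83 (RpL41), where the brightest gene had 14.32 and the median gene 7.40. The 12 other copies lay between 6.85 (RpS28a) and 10.99 (RpL34a), with no member between these and the dimmest main copy.

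With limma's moderated test, 0 of 18769 probe sets passed the threshold of 0.05 after Benjamini-Hochberg adjustment over all of them, so 0 of the 41 members passed, against 0.0% of all genes. At an unadjusted p under 0.05 limma counted 1258 lower and 1154 higher genes. On principal component 1, with 54.1% of the variance, control replicate 1 lay apart at −42.7, where the other arrays lay between −15.4 and 21.4. Markers of a male fly were bright, with a median mean signal of 9.41 over 36 testis markers and 12.38 over 13 accessory gland markers, and those of ovary and yolk dim, at 4.01 over 13 genes.

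The main copies of the ribosomal proteins hardly differed between the diets. Their log2 differences (LCA minus control) ran from −0.13 to 0.01 with a median of −0.04, and the median over all genes was −0.0016. Of the 29 genes 26 were lower by some amount in LCA flies, or 89.7%, against 50.3% of all genes and 55.6% of the 63 other genes at least as bright as the dimmest main copy. This count depended on the scaling: 18 of 29 were lower after quantile normalization (62.1%) and all 29 after median centring. In 7 of the 29 every LCA array lay under every control array, or 24.1%, against 15.0% of all genes and 27.0% of the 63 other bright genes. In 0 of them did every LCA array lie above, where 11.2% of all genes and 27.0% of the other bright genes did. limma counted 0 main copies at an unadjusted p under 0.05 in either direction, against 10.5% of all genes lower and 9.63% higher. Its moderated standard error draws on the variance of all probe sets and can exceed the spread of genes that vary little. For RpS29 it was 0.07, where the SDs over the arrays were 0.03 in control and 0.02 in LCA flies. The count of 0 therefore does not show that main copies differ less than other genes. Of the small subunit genes 10 of 11 were lower (median −0.04), and of the large subunit genes 16 of 18 (median −0.05). After quantile normalization these counts were 8 of 11 and 10 of 18. The size of the offset changed with the scaling, and its cause was not tested. The median was −0.01 after quantile normalization and −0.09 after median centring. With control replicate 3 left out the median was −0.07. Without control replicate 1 it was −0.03, with 23 genes lower and 6 higher. The deposited arrays already share nearly the same distribution of values, so a shift of nearly all transcripts together would be hidden.

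**Figure D1:**
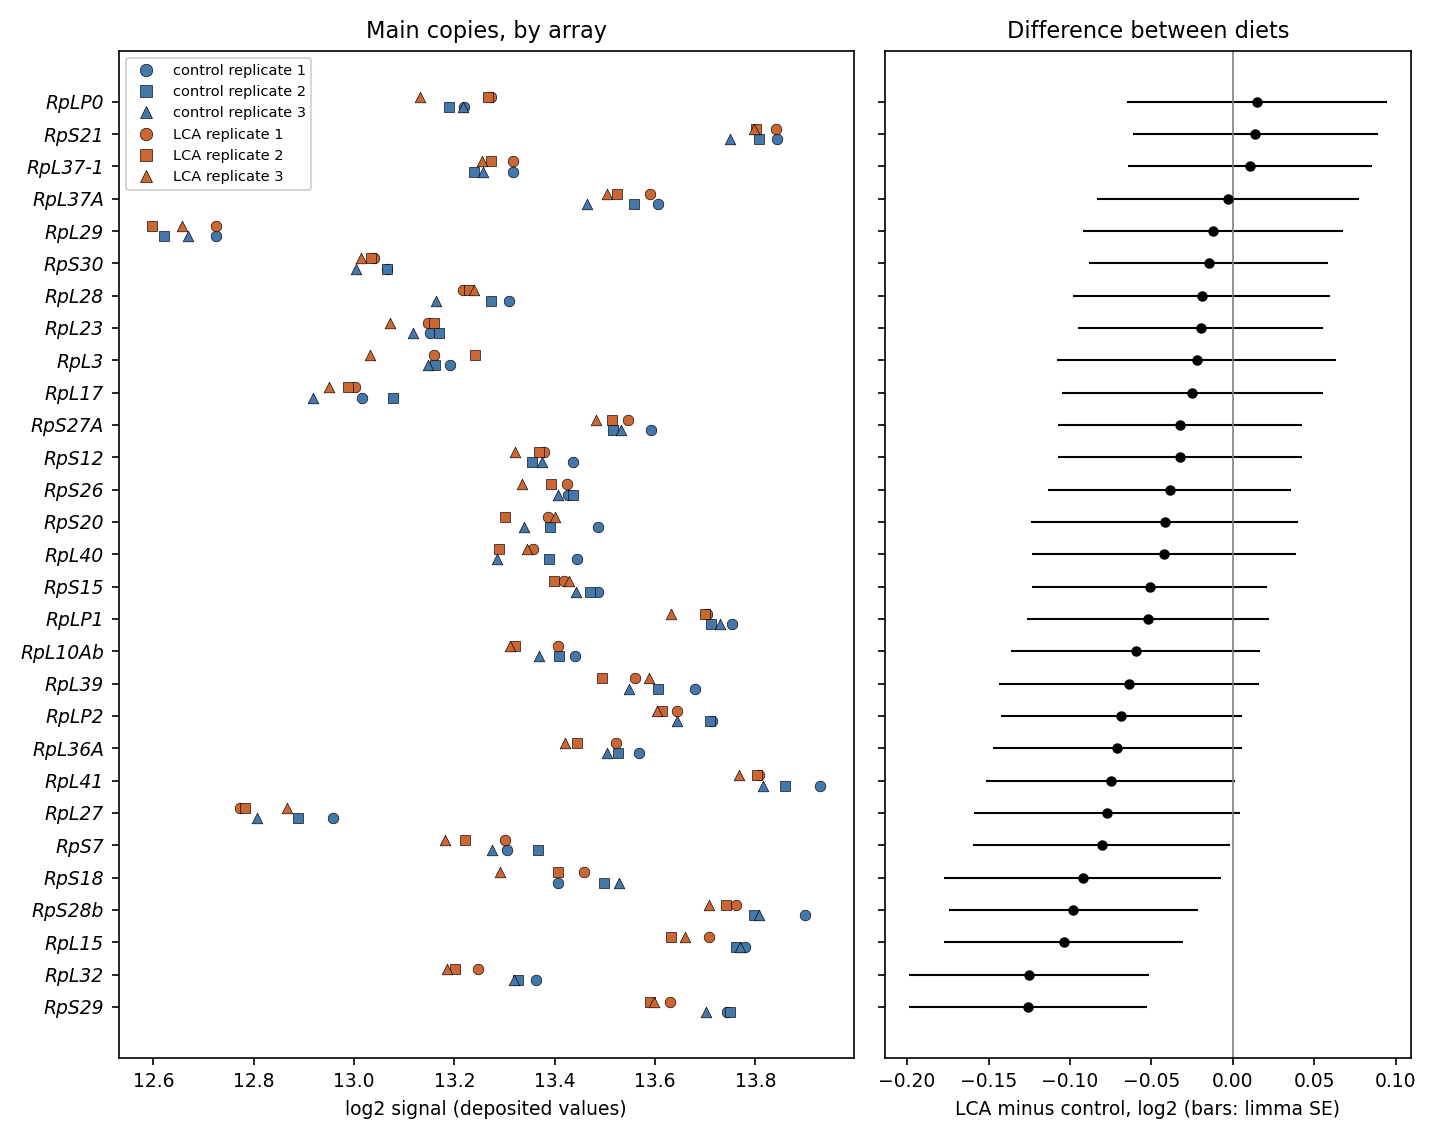
Main copies of the ribosomal proteins, sorted by their difference between diets. Left, the deposited log2 signal in each of the 6 arrays (colour gives the diet, shape the replicate number). Right, the log2 difference LCA minus control with limma's standard error as bars. All differences lie between −0.13 and 0.01, and most bars cross 0.

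RpS29, a small zinc-binding protein of the small subunit, had the smallest p among them. It read 13.74, 13.75 and 13.70 in control replicates 1 to 3 and 13.63, 13.59 and 13.60 in LCA replicates 1 to 3, a difference of −0.13 ± 0.07 (limma SE, adjusted p = 0.411). All 3 LCA arrays lay under the control arrays. RpL32, known as rp49 and widely used as the reference transcript in quantitative PCR of flies, read 13.36, 13.33 and 13.32 in control arrays and 13.25, 13.20 and 13.19 in LCA arrays. Its difference was −0.13 ± 0.07 (limma SE, adjusted p = 0.417), again with no overlap of the diets, and it was −0.069 after quantile normalization. RpL15, of the large subunit, read 13.78, 13.76 and 13.77 in control flies and 13.71, 13.63 and 13.66 in LCA flies (−0.10 ± 0.07, limma SE). RpS28b, the main copy of the RpS28 family, differed by −0.10 ± 0.08 (limma SE), with its diets apart as well. RpS18 (−0.09 ± 0.09) and RpS7 (−0.08 ± 0.08), both of the small subunit, came next by p. Their diets overlapped, and after quantile normalization they were at −0.043 and −0.024. The other genes whose LCA arrays all lay under the control arrays were RpL41 (−0.08), RpLP1 (−0.05) and RpS15 (−0.05).

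The 3 main copies with a difference above 0 were RpLP0 (0.01 ± 0.08), RpS21 (0.01 ± 0.08) and RpL37-1 (0.01 ± 0.07), each smaller than its standard error from limma and each negative after median centring. RpLP0 is the base of the flexible stalk that recruits translation factors to the ribosome, and RpLP1 and RpLP2 are the proteins it carries. RpLP0 read 13.22, 13.19 and 13.22 in control arrays and 13.27, 13.27 and 13.13 in LCA arrays, so its LCA arrays lay on both sides. RpLP1 differed by −0.05 ± 0.07 and RpLP2 by −0.07 ± 0.07 (limma SE). The LCA arrays of RpLP1 all lay under its control arrays, and the diets overlapped in RpLP2.

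RpS27A and RpL40 are made as fusions with ubiquitin, the tag for protein breakdown, and so supply ubiquitin together with a ribosomal protein. RpS27A read 13.59, 13.52 and 13.53 in control flies and 13.55, 13.51 and 13.48 in LCA flies, a difference of −0.03 ± 0.07 (limma SE). RpL40 read 13.44, 13.39 and 13.29 in control flies and 13.36, 13.29 and 13.34 in LCA flies, a difference of −0.04 ± 0.08 (limma SE). In both genes the diets overlapped. RpL3, which lies near the centre where peptide bonds form, differed by −0.02 ± 0.09. RpL40 (0.16), RpL17 (0.16) and RpL27 (0.15) had the widest ranges over the control arrays among the main copies, on the log2 scale. In RpL40 and RpL27 control replicate 1 was the highest control array and control replicate 3 the lowest. RpL27 differed by −0.08 ± 0.08 and RpL17 by −0.02 ± 0.08 (limma SE).

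The main copies varied less between arrays of a diet than the median gene. The median SD of a main copy over the 3 arrays of a diet was 0.04 in control flies and 0.04 in LCA flies. It was 0.16 and 0.11 over all genes, and 0.09 and 0.10 over the other bright genes. Whether signals this high were compressed by the scanner or by the probes was not tested, since no scanner values were used here. Of the 29 main copies, 16 were read by a probe set whose ID marks possible matches to several transcripts of the same or of other genes.

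Most copies of lower signal read higher in LCA flies, and much of the size of their differences rested on 1 control pool. Of the 12 dimmer paralogs and copies measured alone, 9 read higher in LCA flies and 3 lower, where 49.7% of all genes read higher, with a median log2 difference of 0.36. The 5 dimmer paralogs had a median of 0.50, which was 0.25 without control replicate 1. For all 12 copies the median was 0.05 without it, with 8 higher and 4 lower. limma counted 1 of the 12, RpS28a, at an unadjusted p under 0.05, against 9.63% of all genes in that direction. In 2 of the 12 every LCA array lay above every control array, or 16.7%, against 11.2% of all genes, and in 1 every LCA array lay below, against 15.0%. The copies also varied more between control pools, with a median SD of 0.52 in control and 0.14 in LCA flies. Whole flies were measured, so fewer cells of a type and less RNA per cell cannot be told apart.

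**Figure D2:**
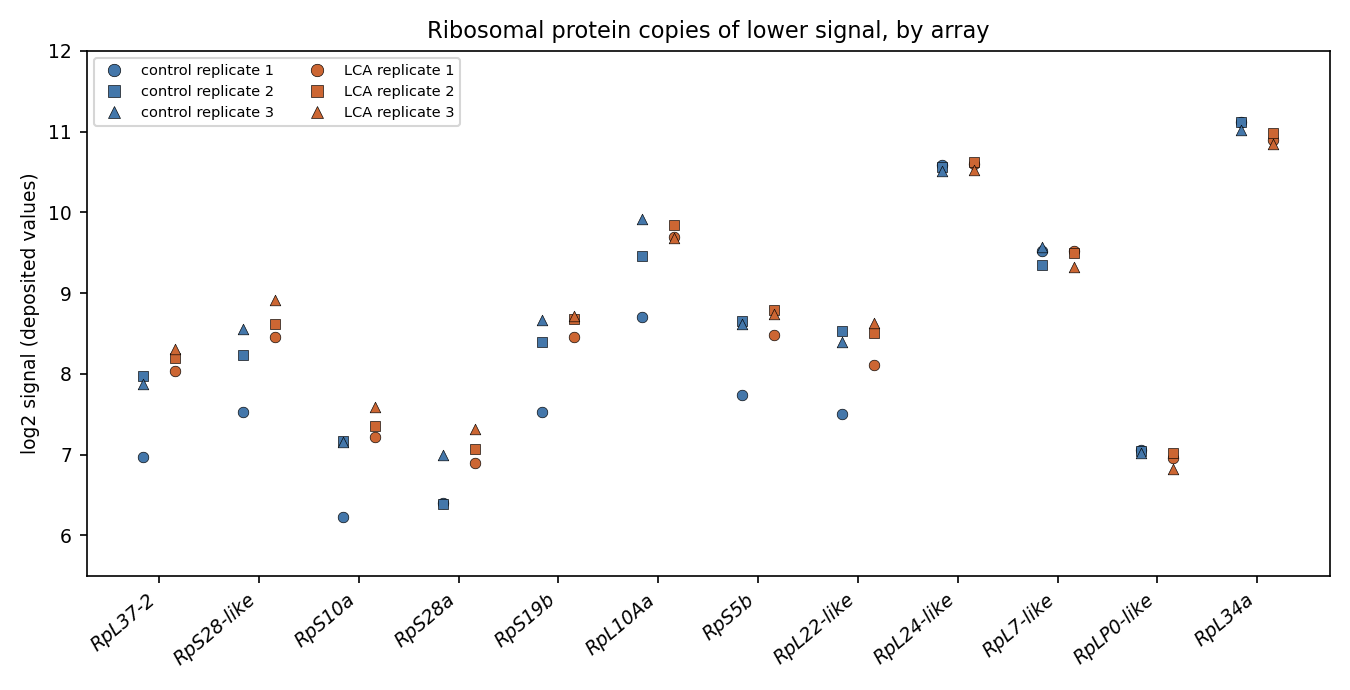
Deposited log2 signal of the 12 dimmer paralogs and copies measured alone in each of the 6 arrays, sorted by the difference between diets (colour gives the diet, shape the replicate number). In 7 of the first 8 genes control replicate 1 lies well under the other arrays; in the last 4 the arrays lie close together.

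RpL37-2, the dimmer copy of a zinc-binding protein of the large subunit, read 6.98, 7.98 and 7.88 in control replicates 1 to 3 and 8.03, 8.19 and 8.31 in LCA replicates 1 to 3. The difference was 0.57 ± 0.26 (limma SE, adjusted p = 0.329), and 0.25 ± 0.11 without control replicate 1. The diets did not overlap, but the other control arrays lay close under the lowest LCA array, and control replicate 1 far below. Its main copy RpL37-1 read 13.32, 13.24 and 13.26 in control flies and 13.32, 13.27 and 13.25 in LCA flies, with no such drop in control replicate 1.

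RpS28 was the family with most copies measured, and its protein lies at the exit of the messenger RNA channel of the small subunit. RpS28-like read 7.53, 8.23 and 8.56 in control flies and 8.45, 8.62 and 8.91 in LCA flies, a difference of 0.55 ± 0.26 (limma SE, adjusted p = 0.334). RpS28a read 6.41, 6.39 and 7.0 in control flies and 6.90, 7.07 and 7.32 in LCA flies, a difference of 0.50 ± 0.19 (limma SE, unadjusted p = 0.0352, adjusted p = 0.287). RpS28a had a low value in control replicate 2 as well, and its difference without control replicate 1 was 0.40 ± 0.20, the largest that remained among the 12 copies; that of RpS28-like was 0.27 ± 0.16. The main copy RpS28b read 13.90, 13.80 and 13.81 in control flies and 13.76, 13.74 and 13.71 in LCA flies, so here the main copy was highest in the array in which RpS28-like was lowest.

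RpL10Aa is the dimmer copy of the protein that forms the movable stalk at the exit site of the large subunit. It read 8.71, 9.46 and 9.92 in control flies and 9.70, 9.84 and 9.68 in LCA flies, a difference of 0.38 ± 0.28 (limma SE, adjusted p = 0.518). Control replicate 3 was its highest array, and without control replicate 1 the difference was 0.05 ± 0.15. Its main copy RpL10Ab differed by −0.06 ± 0.08 (limma SE). RpLP0-like, related to a yeast assembly factor of the large subunit, read 7.06, 7.04 and 7.02 in control flies and 6.96, 7.02 and 6.82 in LCA flies. Its difference of −0.11 ± 0.09 (limma SE) was opposite in sign to those of the other 4 dimmer paralogs, and control replicate 1 was its highest array.

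Within a family, the log2 signal of the dimmer paralog minus that of its main copy was compared between diets with an exact two-sided permutation test, in 5 pairs. With 3 arrays against 3 this test cannot go below 0.1. The largest shift was in RpS28-like against RpS28b, from −5.73 ± 0.58 in control to −5.08 ± 0.26 in LCA flies (SD, n = 3 each), a change of 0.65 (exact p = 0.2, 0.25 adjusted over the 5 pairs). RpS28a against RpS28b changed by 0.60 (exact p = 0.2), RpL37-2 against RpL37-1 by 0.56 (exact p = 0.2) and RpL10Aa against RpL10Ab by 0.44 (exact p = 0.4). RpLP0-like against RpLP0 changed by −0.12 (exact p = 0.1, 0.25 adjusted), and its diets did not overlap. Both RpS28 pairs share a main copy and are not independent. Without control replicate 1 the changes were 0.33, 0.47, 0.22, 0.09 and −0.12 in the same order, and the median over the pairs went from 0.56 to 0.22.

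Among the copies measured alone, 5 read higher in LCA flies and 2 lower. RpS10a, of the small subunit, read 6.23, 7.17 and 7.16 in control flies and 7.22, 7.35 and 7.59 in LCA flies, a difference of 0.54 ± 0.26 (limma SE, adjusted p = 0.342) with the diets apart. RpS19b, also of the small subunit, read 7.52, 8.40 and 8.66 in control flies and 8.45, 8.68 and 8.72 in LCA flies (0.42 ± 0.28, limma SE). RpS5b, a copy known from the germ line, read 7.73, 8.65 and 8.61 in control flies and 8.48, 8.79 and 8.74 in LCA flies (0.34 ± 0.25, limma SE). In each of these control replicate 1 lay far below the other arrays, and the other control arrays lay near or above the lowest LCA array. Without it the differences were 0.23 ± 0.12, 0.09 ± 0.13 and 0.04 ± 0.12. RpL22-like, the testis copy of an RNA-binding protein of the large subunit, read 7.50, 8.52 and 8.39 in control flies and 8.11, 8.51 and 8.62 in LCA flies. Its difference of 0.27 ± 0.28 (limma SE) became −0.05 ± 0.16 without control replicate 1, so its direction rests on that array.

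RpL24-like, RpL7-like and RpL34a varied little between control arrays. RpL24-like, related to a yeast protein that is exchanged for the mature one during assembly of the large subunit, read 10.59, 10.56 and 10.51 in control flies and 10.60, 10.62 and 10.52 in LCA flies (0.03 ± 0.08, limma SE; negative after median centring). RpL7-like, related to another yeast assembly factor, read 9.52, 9.35 and 9.56 in control flies and 9.52, 9.50 and 9.32 in LCA flies (−0.03 ± 0.10). RpL34a, of the large subunit, read 11.12, 11.11 and 11.02 in control flies and 10.89, 10.98 and 10.85 in LCA flies, all lower (−0.17 ± 0.08, limma SE, adjusted p = 0.331). These 3 genes and RpLP0-like had control SDs of 0.02 to 0.11, where the other 8 had 0.35 to 0.61.

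**Figure D3:**
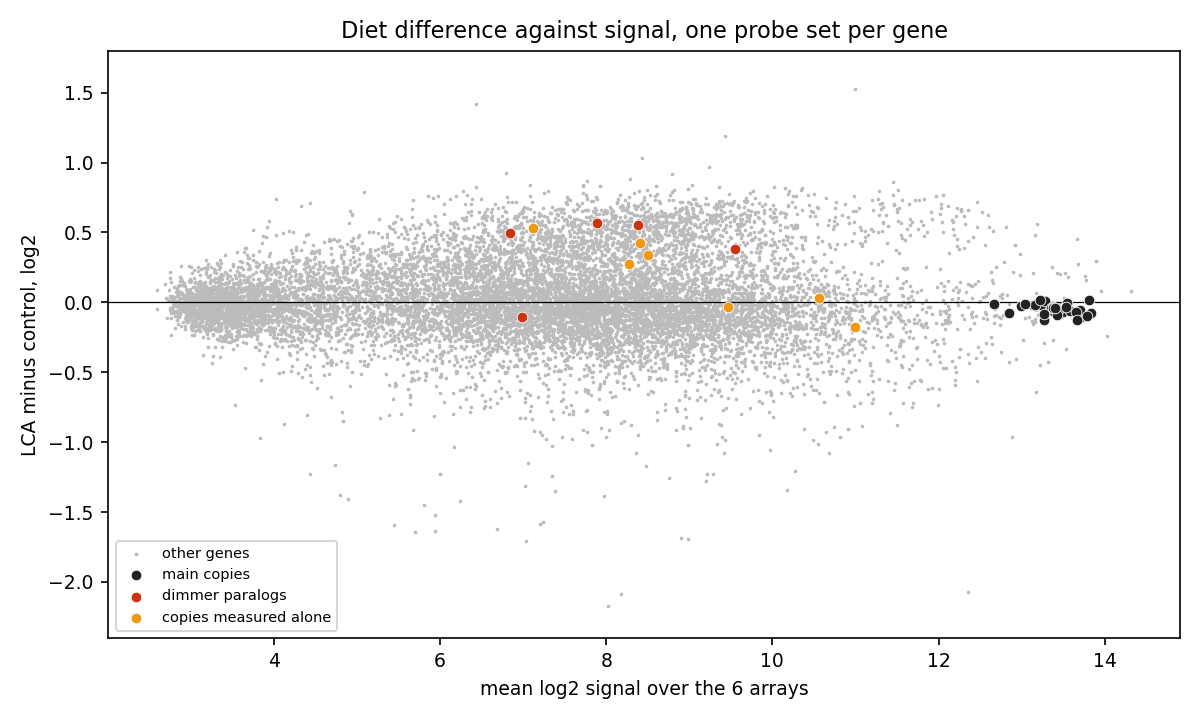
Log2 difference LCA minus control against the mean log2 signal over the 6 arrays, for 1 probe set of each of 11982 genes. Main copies (black) sit at high signal between −0.13 and 0.01; dimmer paralogs (red) and copies measured alone (orange) sit at middle signal, with 8 of the 12 between 0.27 and 0.57.

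Markers of the testis moved with most of these copies across the arrays. The median log2 signal of the 36 testis markers, relative to each gene's mean, was −0.77 in control replicate 1, −0.16 and 0.13 in control replicates 2 and 3, and 0.16, 0.26 and 0.31 in LCA replicates 1 to 3. For the 12 dimmer paralogs and copies measured alone the same medians were −0.77, 0.02 and 0.11 in control and 0.05, 0.23 and 0.27 in LCA flies. RpLP0-like, RpL24-like, RpL7-like and RpL34a had no such low value in control replicate 1. All 36 markers read higher in LCA flies, with a median difference of 0.45, and 12 had an unadjusted p under 0.05 by limma (0 an adjusted one), where 9.63% of all genes were higher at that p. In 15 of the 36 every LCA array lay above every control array, or 41.7%, against 11.2% of all genes. Without control replicate 1 their median was 0.24, and 34 of 36 stayed higher. Among them bol, a regulator of male meiosis, differed by 0.67 ± 0.22 (limma SE). Their mean signals ran from 4.27 for aly, a transcription regulator of spermatocytes, to 13.56. The part of testis RNA in the higher signal of the ribosomal protein copies was not tested. Markers of early germ cells, such as vas and bam, had a median mean signal of 4.55 over 9 genes, with means from 3.22 to 11.01. Their median difference was 0.07, with 4 lower and 5 higher.

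Of the paralogs of translation initiation factors that are known from the testis, 8 were measured and all 8 read higher in LCA flies, with a median of 0.46 that was 0.23 without control replicate 1. In 3 of them the unadjusted p from limma was under 0.05 (0 adjusted), and in 2 every LCA array lay above every control array, where the shares of all genes were 9.63% and 11.2%. eIF3d2, a copy of a subunit of the factor that loads the small subunit, read 7.41, 7.89 and 8.21 in control flies and 8.42, 8.55 and 8.63 in LCA flies (0.70 ± 0.20, limma SE, adjusted p = 0.205). eIF4G2, the testis form of the scaffold of the cap-binding complex, read 10.44, 10.69 and 10.85 in control flies and 10.97, 11.04 and 11.23 in LCA flies (0.42 ± 0.13, limma SE). eIF3g2 differed by 0.44 ± 0.17, and eIF4E3, a cap-binding protein needed in spermatocytes, by 0.52 ± 0.24 (limma SE). In eIF3d2 and eIF4G2 the diets did not overlap, and control replicate 1 was the lowest array of both.

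**Figure D4:**
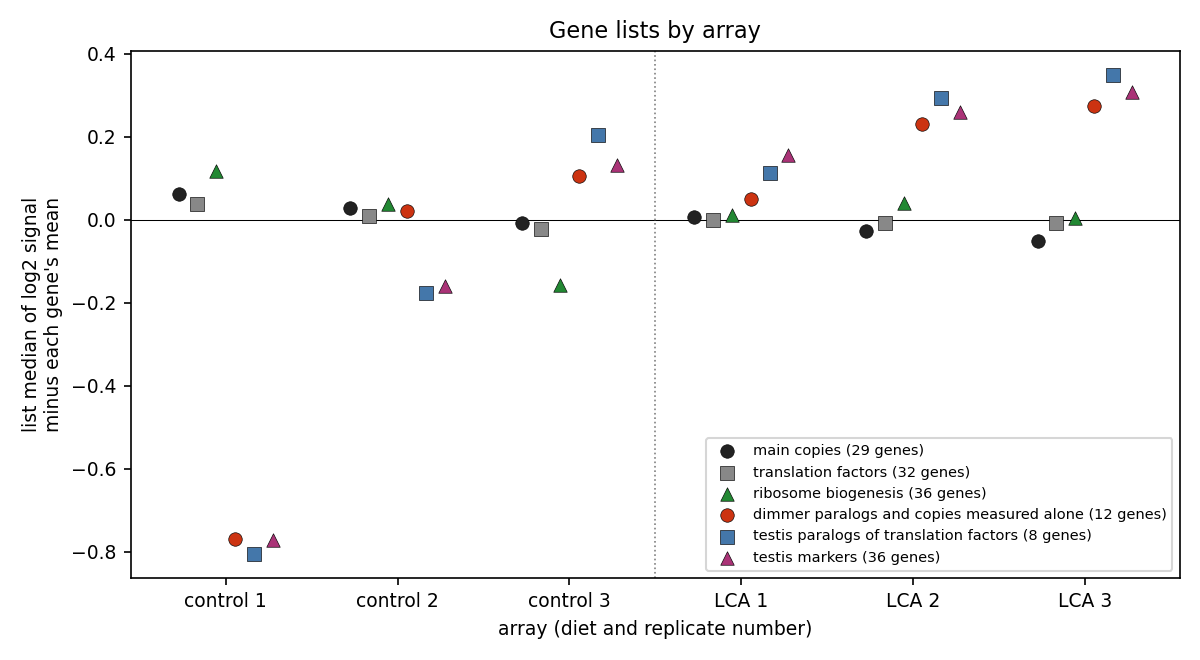
Median over each gene list of the log2 signal minus the gene's own mean, in each of the 6 arrays. Dimmer paralogs and copies measured alone (red circles), testis paralogs of translation factors (blue squares) and testis markers (purple triangles) lie near −0.8 in control replicate 1 and above 0 in the LCA arrays; main copies (black circles) stay between −0.05 and 0.06.

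Translation factors lay on both sides of their control level. Of 32 translation factors and ribosome-associated proteins 16 read lower and 16 higher, with a median of −0.0029 (0.015 without control replicate 1). Over all genes, limma counted 10.5% lower and 9.63% higher at an unadjusted p under 0.05, and of the 32 it counted 1 in each direction. These were bic, the beta subunit of the complex that meets new chains at the ribosome (0.28 ± 0.08, limma SE, adjusted p = 0.211), and eIF4B, a cofactor of the helicase that opens messenger RNA (−0.23 ± 0.08, adjusted p = 0.258). Tctp, a growth-related protein (−0.16 ± 0.08), and eIF4G1, the general scaffold of the cap-binding complex (−0.20 ± 0.11), followed. In all 4 the diets did not overlap, as in 7 lower (21.9%) and 5 higher (15.6%) of the 32, against 15.0% and 11.2% of all genes. Of 36 genes of ribosome biogenesis 23 read higher and 13 lower, with a median of 0.03 that was 0.08 without control replicate 1. limma counted 0 of them at an unadjusted p under 0.05, against 10.5% of all genes lower and 9.63% higher. Every LCA array lay above every control array in 1 of the 36 and below in 0, against 11.2% and 15.0% of all genes. Rrp6, a nuclease of the exosome, had the smallest p (0.31 ± 0.13), followed by Nopp140, a nucleolar chaperone (−0.20 ± 0.10), Ns2, a nucleolar GTPase (0.20 ± 0.11), and l(3)72Dn (0.18 ± 0.10). Control replicate 3 was the lowest array for this list (median −0.16 relative to each gene's mean) and control replicate 1 the highest (0.12).

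Of 10 regulators of growth and of ribosomal protein genes, 9 read lower in LCA flies, with a median of −0.07 that was −0.02 without control replicate 1, where 6 read lower and 4 higher. limma counted 3 at an unadjusted p under 0.05 and 0 at an adjusted one, all lower and with the diets apart, where 10.5% of all genes were lower at that p and 15.0% had all LCA arrays lower. foxo, which insulin signalling keeps out of the nucleus, read 9.27, 9.06 and 9.17 in control flies and 8.81, 8.71 and 8.73 in LCA flies (−0.42 ± 0.09, limma SE, adjusted p = 0.139). raptor, the partner of the TOR kinase, read 4.53, 4.55 and 4.37 in control flies and 4.04, 4.29 and 3.91 in LCA flies (−0.40 ± 0.12, limma SE, adjusted p = 0.221), a signal well under that of the median gene. Irbp18, a bZIP protein that pairs with Xrp1 in the response to ribosomal protein loss, differed by −0.31 ± 0.10 (limma SE, adjusted p = 0.257). S6k, the kinase that phosphorylates RpS6, differed by −0.15 ± 0.11 with overlapping diets.

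Marker lists of other tissues and a measure of RNA quality stood beside these values. Photoreceptor markers (9 of 9 higher, median 0.44), neuron markers (12 of 12 higher, 0.23) and accessory gland markers (13 of 13 higher, 0.21) read higher in LCA flies. Of all genes 49.7% read higher. Every LCA array lay above every control array in 7 photoreceptor, 2 neuron and 6 accessory gland markers, against 11.2% of all genes. Fat body markers read lower in 8 of 11 genes (median −0.27), where 50.3% of all genes did. In 4 of the 11 every LCA array lay below every control array, against 15.0% of all genes. Muscle markers had a median of −0.08 and gut markers of 0.09, and without control replicate 1 these were −0.05 and 0.17. Unlike the testis markers, those of photoreceptors, neurons and the accessory gland were not lowest in control replicate 1. For RNA quality, the 3′ minus 5′ log2 signal was averaged over 3 pairs of control probe sets, for actin, GAPDH and eIF-4a. The mean was 2.34 ± 0.22 on control and 2.65 ± 0.05 on LCA arrays (SD, n = 3 each), and an exact permutation test, two-sided, gave its minimum of p = 0.1. It was 2.56 in control replicate 1, the highest of the control arrays, and 2.60 to 2.70 in LCA arrays. Its part in the differences of the ribosomal protein genes was not tested.

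Of the 41 genes, 4 had further probe sets, 6 in all, and 1 of these, of RpS29, differed in sign from the brightest of its gene. A second bright probe set of RpS29 differed by −0.10 ± 0.07, like the first, with the diets apart. A dim one of RpS29 read 4.86, 5.16 and 5.71 in control flies and 5.55, 5.73 and 5.74 in LCA flies, a difference of 0.43 ± 0.21 (limma SE, adjusted p = 0.338), again lowest in control replicate 1. The mean of its probe sets turned the difference of RpS29 to 0.07. A dim probe set of RpL3 read 7.08, 6.97 and 6.99 in control flies and 6.71, 6.76 and 6.49 in LCA flies (−0.37 ± 0.10, limma SE, adjusted p = 0.193), while the bright one differed by −0.02. RpS30, made as a fusion with a ubiquitin-like protein, had a dim probe set at −0.32 ± 0.10 (limma SE, adjusted p = 0.241) against −0.02 ± 0.07 for the bright one. The remaining probe sets, of RpL3 and RpS7, differed by −0.12 and −0.06. Which transcripts the dim probe sets match was not tested.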

How the data were processed

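The deposited table gives 1 log2 value per probe set and sample, made by the authors, from 2.32 to 14.6. The base was read from the range, since natural logs of a scanner signal would end at 11.1. How the authors summarised, background-corrected and normalized the arrays is not given in the sources used here. Sorted values of the arrays lay within 0.10 of their mean. Of 18952 probe sets 183 array controls were left out, and 13647 had 1 gene symbol, updated through the gene table supplied with the data, which served for names only. Another 402 had several genes and 4720 had none here, and these were tested but not named. No coordinates or sequences were used.

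The LCA minus control test used lmFit and eBayes of limma 3.58.1 (R 4.3.3) with no covariate, over all 18769 probe sets, and SE is limma's moderated one. The fit was also run on simulated arrays with independent noise for each probe set. These hold no effect shared by the probe sets of an array, so such effects were not tested. Shares of all genes use 1 probe set per gene. Arrays carry no detection call here, and their number, 3 per diet, limits the precision. Members, lists and tests were chosen with earlier results of these data known. Named were all genes of families with several copies, the main copies with the smallest p, highest and lowest means and widest control ranges, genes of set roles, members whose probe sets differ in sign, and up to 4 genes of each list of translation genes. The class of copies measured alone was made after the probe sets were seen, as was the naming of further lower main copies and further list genes. The testis list holds Mst57Da, an accessory gland gene, and the fat body and gut lists share Amy-p. Whether each other listed gene is particular to its tissue was not tested.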

Additional observations from a re-analysis of the deposited data

How the results depend on the processing

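With 3 arrays per diet, limma did not tell differences of the size seen in the main copies from 0. Its moderated SE draws on the variance of all probe sets as well as on that of the gene. For RpS29 this SE was 0.07, where the SDs over the arrays were 0.03 in control and 0.02 in LCA flies. Under the alternatives tried (quantile normalization, median centring, filter and floor on low signals, eBayes with trend, other choices of probe set, replicate block, each array left out), limma called 0 of the 41 ribosomal protein genes at an adjusted p under 0.05. Over all probe sets it called 6 with a floor at the 25th percentile and 0 in the others. The median of the main copies was −0.091 after median centring and −0.067 to −0.029 with 1 array left out. The median of the dimmer paralogs was 0.248 to 0.700 with 1 array left out, and 0.36 with the copies measured alone, a choice made after the data were seen. The paralog minus main copy median was 0.215 to 0.738. The main fit did not treat the replicate numbers as pairs, and whether the samples were paired was not settled. Deviations of same-numbered arrays correlated at 0.26, −0.02 and 0.02, and with the replicate block the medians were −0.04, 0.50 and 0.56 with 0 calls.

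Of the 41 members 16 changed sign under some alternative, with small values except in RpL22-like and RpS29. Quantile normalization gave RpL17 0.011, RpL23 0.027, RpL28 0.047, RpL3 0.032, RpL37A 0.022, RpL40 0.0054, RpS12 0.0055 and RpS30 0.049. Median centring gave RpL24-like −0.020, RpL37-1 −0.038, RpLP0 −0.034 and RpS21 −0.035. The mean of all probe sets gave RpS29 0.068, where its brightest probe set gave −0.126, the largest difference among the main copies. With 1 array left out the ranges were −0.048 to 0.464 for RpL22-like, −0.096 to 0.032 for RpL7-like, −0.068 to 0.012 for RpL17, −0.036 to 0.0069 for RpL23, −0.062 to 0.011 for RpL28, −0.045 to 0.019 for RpL29, −0.071 to 0.034 for RpL3, −0.0071 to 0.033 for RpL37-1, −0.043 to 0.029 for RpL37A, −0.0099 to 0.061 for RpLP0 and −0.012 to 0.035 for RpS21.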
